A study of Mus musculus with 12 samples.

Results

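C13, described as an inhibitor of the protein kinase MOK, was compared with its solvent DMSO in SIM-A9 cells exposed to aggregates of TDP-43. SIM-A9 is an immortalised microglial line of the mouse C57BL/6 strain, so that all libraries come from 1 cell line. The comparison uses 6 of the 12 libraries of the series, chosen by their labels: 3 of C13 with TDP-43 aggregates and 3 of DMSO with TDP-43 aggregates. Reagents were added in serum-free medium. All cultures first had 10 µM polymyxin B (1 h) and then 10 µM C13 or its solvent (1 h). Aggregates at 5 µg/mL followed, and 2.5 h later the label 4-thiouridine at 100 µM, with harvest at the end of a 90 min pulse and 4 h of aggregates. The other 6 libraries are C13 with sham aggregates and DMSO with sham aggregates (n = 3 each). They hold the same drug comparison in cultures without TDP-43 aggregates and share no library with the comparison above.

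Microglia, the macrophages that live in brain tissue, take up protein aggregates and answer danger signals through NF-kB, interferon and antioxidant programmes. TDP-43 is a nuclear RNA-binding protein that aggregates in the cytoplasm of neurons in amyotrophic lateral sclerosis and frontotemporal dementia. MOK is a serine/threonine kinase related to the MAP kinases. Polymyxin B binds bacterial endotoxin, which otherwise activates macrophages. In SLAM-seq, cells build 4-thiouridine into RNA made during the pulse, and its alkylation with iodoacetamide makes those bases read as C in place of T, so that reads of newly made RNA are counted apart. The nascent table counts these reads and the total table all reads, in libraries primed at the 3′ ends of mRNAs. The labels call the libraries biological replicates and do not say that they came from separate cultures, so p-values measure the spread between these samples.

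The 6 libraries held 19635278 to 40601211 total reads and 552042 to 1361324 nascent reads. Of 15 markers of microglia and macrophages, 13 were at 1 CPM (reads scaled to a common library size) or more in all 6 libraries, and their summed level was 2780 to 3110 CPM with C13 and 2440 to 2820 CPM with DMSO. P2ry12 and Tmem119, a receptor and a surface protein of resting microglia in tissue, were the exceptions, at 0 to 12.6 and 0 to 1.25 CPM. Of 5 astrocyte markers 3 were at 0 in all 6 libraries, as were 2 of 5 neuronal, 4 of 5 fibroblast and 2 of 5 T and B cell markers. The 5 oligodendrocyte markers summed to 21.0 to 29.4 CPM with C13 and 4.47 to 46.4 CPM with DMSO, with 2 of them at 0 throughout. Replicate 3 of DMSO with TDP-43 stood apart from the other libraries of its group, at 104 on the first principal component of nascent log2 CPM against -17.8 and -29.8 for replicates 1 and 2, and at 91.7 against -9.91 and -14.0 in the total table. Results are therefore also given without it. In the sham libraries, C13 replicate 3 stood apart on the first component too, at 108 and 93.4. On the second component these libraries lay at opposite ends. DMSO replicate 3 with TDP-43 was at 107 in nascent and 95.2 in total RNA, and C13 replicate 3 with sham aggregates at -105 and -88.7. MOK itself could not be used to check the labels, since C13 acts on the protein. Total Mok had 1.53, 8.22 and 1.33 CPM with C13 and 7.73, 0.988 and 2.05 CPM with DMSO, and its nascent reads were at 0 in 5 of the 6 libraries. The groups overlapped.

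The overall share of new RNA was compared first. Nascent reads made up 2.99%, 3.30% and 2.44% of the reads of the C13 libraries and 2.81%, 3.35% and 2.13% of those of the DMSO libraries. The groups overlapped, and the means were 2.91% ± 0.435 with C13 and 2.77% ± 0.610 with DMSO (SD, n = 3 each; two-sided exact permutation test, p = 0.8, where 0.1 is the smallest this design allows). The 95% Clopper-Pearson interval of a share was at widest 2.80% to 2.82%, in DMSO replicate 1, and covers counting error only. The 2 ribosomal RNAs of the mitochondrial genome took 1.51%, 1.54% and 1.29% of total reads with C13 and 1.71%, 2.52% and 2.47% with DMSO. These libraries did not overlap (difference -0.786 percentage points, exact permutation p = 0.1). With sham aggregates the direction was the opposite, with 2.62% ± 0.972 with C13 and 1.32% ± 0.160 with DMSO (SD, n = 3 each; exact permutation p = 0.1). Whether these shares have a part in the gene differences below was not tested.

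**Figure D1:**
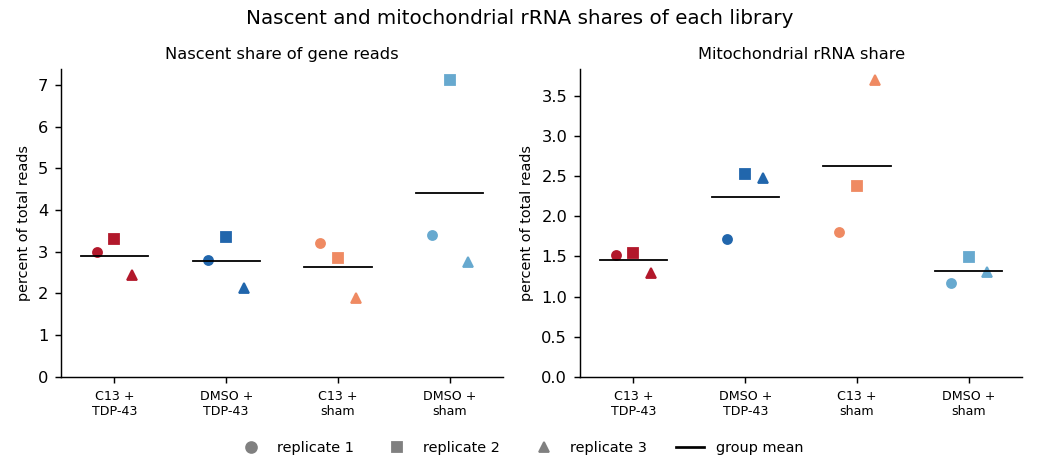
Nascent share of gene reads (left) and share of the 2 mitochondrial ribosomal RNAs (right), both as a percent of total reads, for each of the 12 libraries, with marker shapes for replicates and black lines at group means. With TDP-43 aggregates the nascent shares of C13 and DMSO overlap, while mitochondrial ribosomal RNA is at 1.29% to 1.54% with C13 and 1.71% to 2.52% with DMSO.

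No single gene passed the test in either table. EdgeR's quasi-likelihood test, with Benjamini-Hochberg adjustment over all genes and a threshold of 0.05, called 0 of 7078 genes in nascent RNA (smallest adjusted p = 0.99) and 0 of 11827 in total RNA (smallest adjusted p = 0.562). At an unadjusted p under 0.05 stood 325 nascent genes (4.59%) and 707 total genes (5.98%). Of these, 173 nascent genes (2.44%) were higher and 152 (2.15%) lower with C13, and 411 total genes (3.48%) were higher and 296 (2.5%) lower. DESeq2, run on the same genes, called 18 in nascent and 30 in total RNA. The libraries of the 2 groups did not overlap, with C13 higher, for 426 nascent genes (6.02%) and 824 total genes (6.97%), and with C13 lower for 307 (4.34%) and 766 (6.48%). The replicates spread widely. The median coefficient of variation of a gene within a group was 0.756 in nascent and 0.291 in total CPM, and the median standard error of a log2 fold change was 1.26 and 0.411. CPM are shares of a library, so fewer cells and less RNA per cell cannot be told apart, and a gene's share also moves with the other genes. Of 9932 genes with over 50 total reads on average, 1917 had counts that are all multiples of one whole number, 2 or larger; the labels do not say why. This held for 15 of the 48 entries named below. The genes below are given as values, and the words higher and lower describe the libraries, not a call.

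In nascent RNA, the 12 named genes higher with C13 included regulators of ubiquitin signalling and of transcription. Cyld encodes a deubiquitinase that restrains NF-kB (chromosome 8, 88697028 to 88751945, GRCm38). Its nascent reads stood at 838, 278 and 727 CPM with C13 and 124, 45.8 and 169.6 CPM with DMSO. Each C13 library was above each DMSO library, with a log2 fold change of 2.45 (SE 0.71) and 2.87 without DMSO replicate 3. Its total reads were closer, at 648, 596 and 632 CPM with C13 and 562, 381 and 528 CPM with DMSO (log2 fold change 0.35, SE 0.18). Nascent Dtx2, a ubiquitin ligase of the Deltex family linked to Notch signalling (chromosome 5, 135994800 to 136032872), had 313, 282 and 324 CPM with C13 and 20.1, 0 and 7.71 CPM with DMSO. The C13 libraries lay close together, and the DMSO libraries held 16 reads in all, in counts that are all multiples of 4 (log2 fold change 5.12, SE 1.32). Nascent Ola1, an ATPase of the Obg family (chromosome 2, 73092801 to 73218924), had 153, 209.7 and 243 CPM with C13 and 26.8, 10.5 and 5.78 CPM with DMSO (log2 fold change 3.81, SE 1.00).

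Chromatin and nuclear factors followed. Nascent Ss18, a subunit of the BAF chromatin remodelling complex, had 293, 107 and 604 CPM with C13 and 53.5, 13.1 and 30.8 CPM with DMSO (log2 fold change 3.38, SE 0.99). The C13 values spread over a wide range, yet the lowest was above the highest with DMSO. Nascent Esrra, a nuclear receptor that drives mitochondrial genes, had 166, 147 and 19.3 CPM with C13 and 3.35, 17.0 and 7.71 CPM with DMSO, where replicate 3 of C13 was only just above the DMSO libraries. For 4 further genes the DMSO libraries held 3 reads or fewer in all, so no fold is given. Ints3, a subunit of the Integrator complex, had 66.0, 4.86 and 167 CPM with C13 and 0, 1.31 and 0 CPM with DMSO. Sap30l, a partner of the Sin3 deacetylase complex, had 154, 85.8 and 2.42 CPM with C13 and 0, 0.654 and 1.93 CPM with DMSO. In both, 1 C13 library was close to the DMSO level. The other 2 were Ccar1, a coactivator of transcription, and Txndc5, a disulphide isomerase of the endoplasmic reticulum.

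Metabolic and mitochondrial genes completed the higher group. Nascent mt-Tw, the mitochondrial tRNA for tryptophan, had 1498, 2222 and 1812 CPM with C13 and 617, 564 and 501 CPM with DMSO (log2 fold change 1.72, SE 0.50). Its total reads were separated as well, at 95.1, 129 and 73.6 CPM with C13 and 42.4, 42.0 and 21.7 CPM with DMSO (log2 fold change 1.49, SE 0.29). It was the only gene named in both tables, which share many of its reads. Of its total reads, 1226 of 2366, 2744 of 4615 and 1500 of 2540 were nascent with C13. With DMSO these were 369 of 834, 862 of 1787 and 260 of 678, and the reason for such high shares was not tested. Reads of mt-Tw that were not nascent had a log2 fold change of 1.14 (SE 0.30). An overlapping gene on the same strand makes its count uncertain, and the mitochondrial ribosomal RNAs given above stood the other way round. Nascent Ctps2, an enzyme that makes CTP, had 403, 530.3 and 713 CPM with C13 and 21.7, 42.5 and 0 CPM with DMSO. Nascent Parl, a protease of the inner mitochondrial membrane, had 91.6, 282 and 493 CPM with C13 and 55.2, 64.8 and 28.9 CPM with DMSO (log2 fold change 2.53, SE 0.78).

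The 12 nascent genes lower with C13 included a nucleoside transporter, an actin nucleator subunit and proteins of membrane turnover. Nascent Slc29a1, the equilibrative nucleoside transporter ENT1 (chromosome 17, 45585200 to 45599606), had 309, 121 and 124 CPM with C13 and 565, 459 and 1432 CPM with DMSO. DMSO replicate 3 was far above the other libraries, and the log2 fold change of -2.15 (SE 0.61) was -1.47 without it. Nascent Arpc4, a subunit of the actin-nucleating Arp2/3 complex, had 386, 505 and 329 CPM with C13 and 1151, 759 and 1511 CPM with DMSO (log2 fold change -1.49, SE 0.44), and overlaps another gene on its strand. Nascent Atp5e, the epsilon subunit of ATP synthase, had 18.3, 8.1 and 7.25 CPM with C13 and 66.9, 92.9 and 272 CPM with DMSO (log2 fold change -3.67, SE 0.93, and -2.83 without DMSO replicate 3). All C13 libraries of these genes lay below all DMSO libraries, and DMSO replicate 3 was the highest in each.

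Further members were lower without overlap as well. Nascent Mrps10, of the small mitochondrial ribosomal subunit, had 0, 25.9 and 14.5 CPM with C13 and 127, 199 and 131 CPM with DMSO, with counts in multiples of 4, and here DMSO replicate 3 was not apart. Nascent Retreg2, of a family of receptors for turnover of the endoplasmic reticulum, had 90.4, 14.6 and 16.9 CPM with C13 and 258, 217 and 269.8 CPM with DMSO (log2 fold change -2.61, SE 0.86). Nascent Hnrnpf, a splicing regulator whose counts are multiples of 5, had 495, 267 and 393 CPM with C13 and 1288, 527 and 1359 CPM with DMSO (log2 fold change -1.46, SE 0.50). The remaining 6 were Josd2, a deubiquitinase; Nploc4, a cofactor of the p97 segregase; Tulp4; Sppl3, an intramembrane protease of the Golgi; Atg16l2, a relative of the autophagy protein ATG16L1; and the histone gene Hist2h2be. Their log2 fold changes lay between -5.88 and -3.45, or -4.32 and -2.82 without DMSO replicate 3, and C13 libraries did not exceed 16.2 CPM in any of them.

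In total RNA, the 12 genes higher with C13 included a DNA damage kinase and factors of RNA processing and decay. Total Atm, the kinase that signals DNA double-strand breaks (chromosome 9, 53439149 to 53536740), had 82.7, 93.9 and 96.6 CPM with C13 and 34.8, 18.0 and 39.8 CPM with DMSO. The groups were well separated, with a log2 fold change of 1.56 (SE 0.30), and 1.80 without DMSO replicate 3. Total Exosc8 and Exosc6 encode core subunits of the RNA exosome, which degrades RNA from its 3′ end. Exosc8 had 189.5, 109 and 109 CPM with C13 and 65.5, 54.7 and 51.0 CPM with DMSO (log2 fold change 1.25, SE 0.26). Exosc6 had 109, 109 and 108 CPM with C13 and 63.3, 50.4 and 56.8 CPM with DMSO (log2 fold change 0.94, SE 0.23), and overlaps another gene on its strand. Total Prpf19, a ubiquitin ligase of the spliceosome, had 901, 1137 and 1074 CPM with C13 and 556, 391 and 464 CPM with DMSO (log2 fold change 1.14, SE 0.25). All C13 libraries of these genes were above all DMSO libraries.

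Kdm4a, a histone demethylase, was among the most even of the named genes, with 776, 774 and 815 total CPM with C13 and 509.8, 380.0 and 513 CPM with DMSO (log2 fold change 0.75, SE 0.17). Lipid enzymes were represented by Agpat4, an acyltransferase of phospholipid synthesis, with 386, 334 and 235 CPM with C13 and 136, 78.6 and 98.4 CPM with DMSO (log2 fold change 1.61, SE 0.34), and by Pla2g6, a phospholipase. Pla2g6 had 35.0, 40.4 and 42.5 CPM with C13 and 9.67, 14.1 and 16.6 CPM with DMSO (log2 fold change 1.54, SE 0.37). Neither gene had overlapping libraries. Adamts4, a metalloprotease of the extracellular matrix, Zfp768, a zinc finger protein, Ganab, a glucosidase that trims glycans in the endoplasmic reticulum, and Aamdc had log2 fold changes between 0.89 and 1.63.

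The 12 total genes lower with C13 included an mRNA decay factor, a Polycomb subunit and several signalling kinases. Total Khsrp, which binds AU-rich elements and promotes decay of cytokine mRNAs (chromosome 17, 57021051 to 57031522), had 81.8, 91.7 and 63.7 CPM with C13 and 154, 153 and 238 CPM with DMSO. The log2 fold change was -1.20 (SE 0.24), and -0.95 without DMSO replicate 3, which was the highest library. Total Gsk3b, a kinase of Wnt and insulin signalling, had 88.4, 79.2 and 86.7 CPM with C13 and 138, 129.9 and 153 CPM with DMSO (log2 fold change -0.73, SE 0.18). Total Fyn, a Src-family kinase, had 55.2, 63.2 and 68.5 CPM with C13 and 134, 145 and 176 CPM with DMSO (log2 fold change -1.28, SE 0.36). Replicates of these kinases lay close together, and the groups did not overlap. Tnk2, another tyrosine kinase, with counts in multiples of 8, had 198, 118 and 153 CPM with C13 and 316, 306 and 372 CPM with DMSO. Total Suz12, a subunit of Polycomb repressive complex 2, had 187, 145 and 113 CPM with C13 and 234, 281 and 368 CPM with DMSO (log2 fold change -0.99, SE 0.24). The rest were Maged1, the checkpoint clamp gene Rad9a, Pank1 of coenzyme A synthesis, Zyx of focal adhesions, the chloride channel protein Clic4, Acsl1, which activates fatty acids, and Commd2, with log2 fold changes between -1.84 and -0.62. Adjusted p-values of the named total genes were 0.562 to 0.777 (edgeR).

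**Figure D2:**
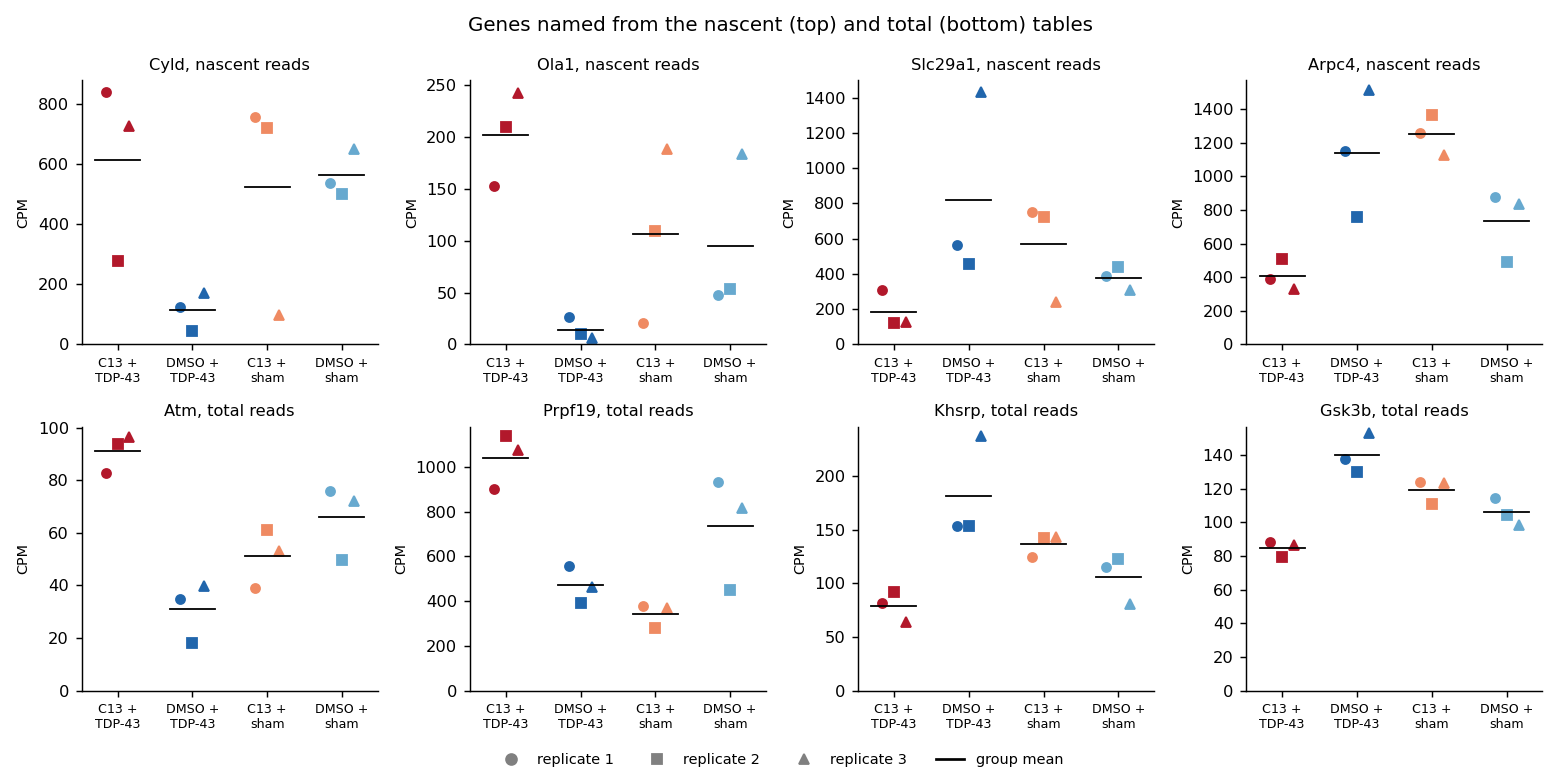
Normalised reads (CPM, linear axes from 0) of 4 genes named from nascent RNA (top) and 4 from total RNA (bottom) in each library, with marker shapes for replicates and black lines at group means. In each panel the C13 and DMSO libraries with TDP-43 aggregates do not overlap, which the naming rule required. The sham libraries on the right entered the rule only through the filter, scaling and spread of the shared fit.

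Nascent reads are part of the total reads. Separation in both was therefore sought in nascent reads and in the remaining reads of the same gene. The remaining reads are all those not counted as nascent, and how much of them is older RNA was not measured. Libraries did not overlap in either kind of read for 81 genes higher with C13 (1.14% of 7078) and 44 genes lower (0.622%). St3gal5, Arpc1b, Fnbp1, Nudt3, Pomp and Csf2ra, all higher, and Actr3 and Arpc5, both lower, were chosen from these after their values were seen. In sham cultures the nascent log2 fold change had the opposite sign for 48 of the 81 and 32 of the 44, against 52.8% of all genes. Of the chosen genes only Nudt3 and Pomp kept their sign there, at 0.58 and 0.54. St3gal5, the synthase of the ganglioside GM3, had 1344, 2165 and 1996 nascent CPM with C13 and 739, 442 and 937 with DMSO (log2 fold change 1.38, SE 0.47). Its total reads were at 1601, 2651 and 1685 CPM with C13 and 953, 513 and 1196 CPM with DMSO (log2 fold change 1.16, SE 0.31). Both kinds of reads thus gave differences of like size. Arpc1b, a further Arp2/3 subunit, had 1656, 940.0 and 947 nascent CPM with C13 and 534, 489 and 478 with DMSO (log2 fold change 1.24, SE 0.44), opposite in direction to nascent Arpc4. Its total reads had a log2 fold change of 0.84 (SE 0.30). Actr3 and Arpc5, 2 more subunits of the complex, were lower without overlap in both kinds of read. Actr3 had 205, 154 and 84.6 nascent CPM with C13 and 271, 213 and 771 with DMSO (log2 fold change -1.50, SE 0.66), and its other reads gave -0.43 (SE 0.19). Its DMSO replicate 3 was far above the other libraries in nascent reads, and the lowest DMSO library was close to the highest with C13. Arpc5 had 208, 98.8 and 79.8 nascent CPM with C13 and 348, 296 and 243 with DMSO (log2 fold change -1.20, SE 0.59), and its other reads gave -0.45 (SE 0.27). Fnbp1, which bends membranes in endocytosis, had 5090.1, 6175 and 8119 nascent CPM with C13 and 3019.6, 1078 and 4648 with DMSO (log2 fold change 1.15, SE 0.56), and total reads gave 1.10 (SE 0.34). Nudt3, a phosphohydrolase, Pomp, a chaperone of proteasome assembly, and Csf2ra, the alpha chain of the GM-CSF receptor, had total log2 fold changes of 0.80 (SE 0.24), 1.00 (SE 0.31) and 1.62 (SE 0.50).

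NRF2 is a transcription factor that binds antioxidant response elements and switches on haem breakdown and thiol metabolism under oxidative or electrophilic stress. Of 28 targets, 23 were tested in nascent RNA, of which 13 were higher with C13 and 4 did not overlap, all higher (17.4%, against 6.02% of all genes). Their median log2 fold change was 0.20, against 0.02 for all genes, and ran from -0.09, without C13 replicate 3, to 0.29 as single libraries were left out. Without DMSO replicate 3, 8 members were higher without overlap (34.8%, against 10.3% of all genes). In total RNA 21 of 27 were higher, with a median of 0.17 and with 5 higher (18.5%, against 6.97% of all genes) and 2 lower without overlap (7.41%, against 6.48%). None was called. Nascent Hmox1, haem oxygenase 1 (chromosome 8), had 1665, 3136 and 1768 CPM with C13 and 738, 1173 and 1127 CPM with DMSO. Replicate 2 with C13 was the highest, and all C13 libraries were above all DMSO libraries, with a log2 fold change of 1.11 (SE 0.48), and 1.20 without DMSO replicate 3. Total Hmox1 was separated as well, at 811, 892 and 445 CPM with C13 and 381, 414 and 392 CPM with DMSO (log2 fold change 0.86, SE 0.37). Nascent Srxn1, the enzyme that repairs overoxidised peroxiredoxins, had 672, 717 and 462 CPM with C13 and 243, 368 and 355 CPM with DMSO (log2 fold change 0.94, SE 0.46). Its total reads overlapped, at 334, 348 and 227 CPM with C13 and 198, 176 and 238 CPM with DMSO (log2 fold change 0.57, SE 0.25).

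Nascent Gclm, a subunit of the enzyme that begins glutathione synthesis, had 169.8, 195 and 153 CPM with C13 and 110.4, 98.8 and 133 CPM with DMSO (log2 fold change 0.60, SE 0.78), whereas total Gclm overlapped (log2 fold change 0.05, SE 0.28). Gclc, the other subunit of this enzyme, was lower without overlap in total RNA (log2 fold change -0.41, SE 0.27). So was Mgst1, a microsomal glutathione transferase (-2.66, SE 1.67). Slc48a1, a haem transporter, was higher without overlap in both tables, with total values of 200.4, 175 and 187 CPM with C13 and 148, 149.9 and 119.9 CPM with DMSO (log2 fold change 0.43, SE 0.24). Nascent Txn1, thioredoxin, stood the other way, at 352, 220.2 and 385 CPM with C13 and 505, 308 and 967 CPM with DMSO, with overlap. Nqo1, often used as a reporter of NRF2, had no nascent read in the 6 libraries and at most 0.967 total CPM. In sham cultures nascent log2 fold changes of C13 over DMSO were 1.07 (SE 0.48) for Hmox1, with overlapping libraries, and 0.94 (SE 0.45) for Srxn1.

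The promoters of Srxn1 and Gclm are shown because NRF2 binds antioxidant response elements and these genes were separated in nascent RNA. Hmox1 and Slc48a1 were separated there too, but no window was available for them. The windows run from 250 bases before to 50 bases after the start site (RefSeq, GRCm38.p6), and capitals mark a match to the core of the antioxidant response element, TGACNNNGC, on either strand.
Srxn1, chr2:152105274-152105573, plus strand: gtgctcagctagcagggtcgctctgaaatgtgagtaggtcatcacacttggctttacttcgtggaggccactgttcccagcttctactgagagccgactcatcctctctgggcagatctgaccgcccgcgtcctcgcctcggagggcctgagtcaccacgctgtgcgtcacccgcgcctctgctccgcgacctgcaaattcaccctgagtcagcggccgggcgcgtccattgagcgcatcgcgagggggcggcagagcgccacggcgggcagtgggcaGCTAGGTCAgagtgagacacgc
Gclm, chr3:122245307-122245606, plus strand: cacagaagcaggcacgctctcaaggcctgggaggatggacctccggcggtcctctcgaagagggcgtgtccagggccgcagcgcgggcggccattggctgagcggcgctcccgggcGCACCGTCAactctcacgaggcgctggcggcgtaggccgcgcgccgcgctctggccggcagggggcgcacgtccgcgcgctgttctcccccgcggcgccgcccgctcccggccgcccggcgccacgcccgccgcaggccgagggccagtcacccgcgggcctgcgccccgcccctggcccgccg
Each window holds 1 match, read on the minus strand. Of the 28 targets 22 had a window, and 9 of these held the motif, which was present in 12.4% of all 32851 windows and for 14% of genes. A match is a description of letters and not a measured binding site.

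**Figure D3:**
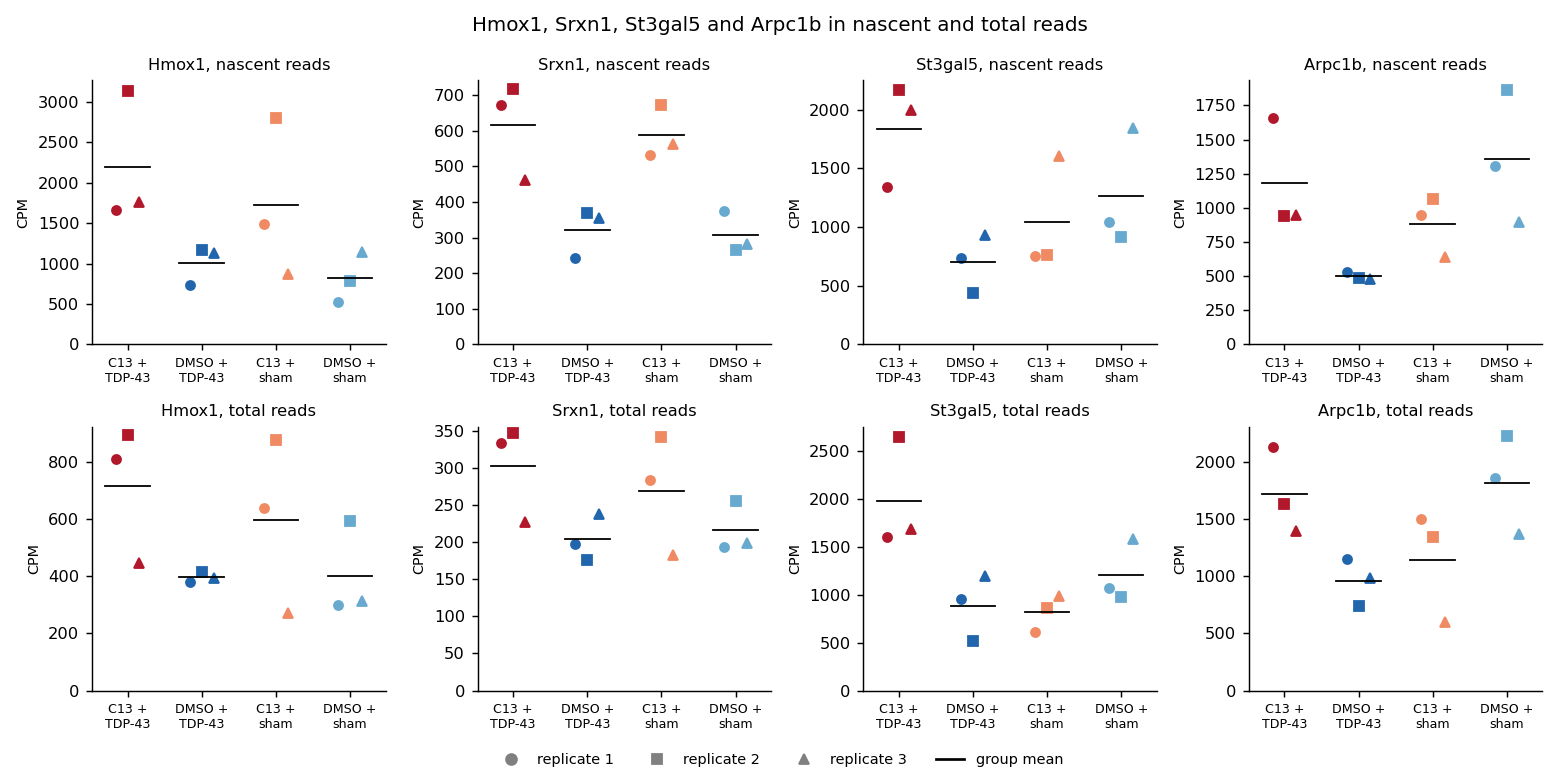
Nascent (top) and total (bottom) CPM of Hmox1, Srxn1, St3gal5 and Arpc1b in each library, on linear axes from 0, with marker shapes for replicates and black lines at group means. With TDP-43 aggregates the nascent C13 and DMSO libraries do not overlap in any of the 4 genes; with sham aggregates nascent Srxn1 is separated too, while Hmox1, St3gal5 and Arpc1b overlap.

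Inflammatory mediators gave mixed values. From a list of 34 cytokines, chemokines and enzymes, 7 of 12 tested in nascent RNA and 10 of 25 tested in total RNA were higher with C13. Nascent Tnf, tumour necrosis factor, had 1709, 1990.2 and 2285 CPM with C13 and 1243, 1199.9 and 2355 CPM with DMSO, with overlap through DMSO replicate 3. Total Tnf had 73.4, 102 and 86.3 CPM with C13 and 56.5, 73.1 and 60.4 CPM with DMSO, where the lowest C13 library was just above the highest with DMSO (log2 fold change 0.46, SE 0.25). The chemokine Cxcl2 stood the other way in total RNA, at 64.7, 114 and 109.9 CPM with C13 and 128, 145 and 128 CPM with DMSO (log2 fold change -0.47, SE 0.26), and its nascent libraries overlapped. Ccl4, a chemokine of activated macrophages, was at 94.1, 456 and 298 nascent CPM with C13 and 499, 485 and 699.6 with DMSO, without overlap (log2 fold change -0.99, SE 0.69). Interleukin 1 beta, Il1b, overlapped in both tables, at 50.6, 39.2 and 52.6 total CPM with C13 and 53.7, 37.4 and 36.4 CPM with DMSO. Il6 and Ifnb1 had no nascent read in the 6 libraries, and nascent Nos2 was at 0, 0.81 and 0 CPM with C13 and 15.1, 9.81 and 0 CPM with DMSO.

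Of type I interferon-stimulated genes, 8 of 17 were higher in nascent reads, where the list's median was -0.04, and 22 of 37 in total reads, where it was 0.18. Libraries did not overlap with C13 higher for 4 in nascent RNA (23.5%, against 6.02% of all genes) and 4 in total RNA (10.8%, against 6.97%). They did not overlap with C13 lower for 1 in nascent RNA (5.88%, against 4.34%) and 2 in total RNA (5.41%, against 6.48%), which are Ifit2 and Ifi204. Isg15, a ubiquitin-like modifier, had 366, 519 and 331 nascent CPM with C13 and 182, 158 and 266 with DMSO (log2 fold change 1.00, SE 0.80). Its total reads overlapped, at 72.4, 65.8 and 39.3 CPM with C13 and 46.9, 27.9 and 26.8 CPM with DMSO (log2 fold change 0.81, SE 0.43). Eif2ak2, the double-stranded RNA sensor PKR, had 51.3, 44.1 and 36.6 total CPM with C13 and 28.9, 21.3 and 25.6 CPM with DMSO (log2 fold change 0.80, SE 0.31). From the list of cytosolic nucleic acid sensing, Adar, which edits double-stranded RNA, had 71.8, 70.8 and 59.1 total CPM with C13 and 45.3, 34.4 and 49.7 CPM with DMSO (log2 fold change 0.64, SE 0.26). Both were separated between the groups. Rsad2 overlapped in both tables, and nascent Cxcl10 turned with 1 library, at 34.2, 26.7 and 48.3 CPM with C13 and 5.02, 5.23 and 181 CPM with DMSO. Its log2 fold change was -0.80 (SE 1.43), and 2.80 without DMSO replicate 3.

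NF-kB subunits and feedback genes had 15 of 29 members higher in nascent RNA and 14 of 30 in total RNA, with medians of 0.02 and -0.01 on the log2 scale. In nascent RNA Cyld was the 1 member higher without overlap (3.45%, against 6.02% of all genes) and Tank, an adaptor of NF-kB and interferon signalling, the 1 member lower (3.45%, against 4.34%). Pattern recognition and scavenger receptors had 9 of 24 members higher in total RNA, with 4 higher (16.7%, against 6.97%) and 1 lower without overlap (4.17%, against 6.48%), the scavenger receptor Scarb1. Among the higher ones Tlr4, the endotoxin receptor, had 9.96, 14.6 and 14.9 total CPM with C13 and 6.46, 6.24 and 6.49 CPM with DMSO (log2 fold change 1.04, SE 0.52), and Irak2, a kinase of Toll-like receptor signalling, had 67.2, 58.6 and 66.1 CPM with C13 and 52.7, 38.8 and 26.8 CPM with DMSO. Nascent Nlrp3, the inflammasome sensor, had 34.2, 74.5 and 50.7 CPM with C13 and 197, 75.9 and 185 CPM with DMSO, a narrow separation (log2 fold change -1.51, SE 0.81). It was the 1 lower member of the 5 inflammasome genes tested in nascent RNA (20%, against 4.34% of all genes lower without overlap). The other 4 were higher, with a list median of 0.89, and 8 of 12 were higher in total RNA (median 0.13). Of the MAP kinases and their relatives, 9 of 19 were higher in nascent and 11 of 26 in total RNA. Immediate-early genes had the lowest total median of the 33 lists, at -0.38, with 8 of 26 higher, whereas 10 of 15 were higher in nascent reads (median 0.13). Myc had no nascent read in the 6 libraries, and total Myc was at 0 in all C13 libraries and at 0, 1.41 and 0.896 CPM with DMSO.

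Proteostasis genes were next. Of 23 heat shock genes, 11 were higher in nascent and 12 in total RNA. Total libraries were higher without overlap for 5 of them (21.7%, against 6.97% of all genes) and lower for 1 (4.35%, against 6.48%). These counts were the same when DMSO replicate 3 was left out (21.7%, against 11.1%, and 4.35%, against 11.9%). Bag3, a co-chaperone of aggregate clearance, had 53.8, 66.6 and 72.8 total CPM with C13 and 33.4, 35.4 and 31.6 CPM with DMSO (log2 fold change 0.94, SE 0.30). Hspa4, of the HSP110 family, had 187, 241 and 297 CPM with C13 and 179.8, 112 and 123 CPM with DMSO (log2 fold change 0.81, SE 0.30), and Hspd1, the mitochondrial HSP60, had 767, 935 and 1002 CPM with C13 and 699, 583 and 704 CPM with DMSO. In sham cultures these 3 genes had log2 fold changes of -0.49, -1.32 and -0.32, opposite to those with aggregates. Total Nbr1, an autophagy receptor, had 25.3, 28.4 and 30.1 CPM with C13 and 38.2, 88.9 and 39.3 CPM with DMSO (log2 fold change -0.99, SE 0.32). Autophagy genes as a list had 10 of 20 members higher in nascent and 18 of 27 in total RNA, lysosomal genes 13 of 31 and 14 of 36, and unfolded protein response genes 6 of 18 and 8 of 24. In total RNA 5 of the 24 unfolded protein response genes were lower without overlap (20.8%, against 6.48% of all genes) and 0 higher (against 6.97%). Without DMSO replicate 3 these were 7 lower (29.2%, against 11.9%) and 0 higher (against 11.1%). The 5 were Dnajc3, Pdia6, Calr, Xbp1 and Manf. Pdia6, a disulphide isomerase, had 213, 242 and 254 CPM with C13 and 347, 259.9 and 354 CPM with DMSO (log2 fold change -0.44, SE 0.19). Of ATF4 targets, 12 of 27 were higher in total RNA, with 2 higher (7.41%, against 6.97%) and 3 lower without overlap (11.1%, against 6.48%). The higher ones were Atf5 (log2 fold change 0.66, SE 0.23) and Aars (0.52, SE 0.19), and the lower ones Mthfd2 (-0.31, SE 0.21), Sars (-0.33, SE 0.20) and Wars (-0.45, SE 0.23).

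TDP-43 itself is encoded by Tardbp. Total Tardbp had 803, 814 and 1006 CPM with C13 and 913, 781 and 666 CPM with DMSO, and nascent Tardbp had 566, 2229 and 1529 CPM with C13 and 1253, 1122 and 1411 CPM with DMSO, with overlap in both. Among 31 tested RNA-binding proteins of its list, 7 were higher and 24 lower in nascent reads, and the median was -0.45, or -0.28 without DMSO replicate 3. In total RNA 13 were higher and 18 lower. Of these, 8 were lower without overlap (25.8%, against 6.48% of all genes) while 0 were higher without it (against 6.97%). Without DMSO replicate 3 these counts were 9 lower (29.0%, against 11.9% of all genes) and 3 higher (9.68%, against 11.1%). Total Elavl1, which stabilises AU-rich mRNAs, had 94.5, 118 and 119.7 CPM with C13 and 148, 144 and 182 CPM with DMSO (log2 fold change -0.51, SE 0.23). Hnrnpr had 89.6, 169 and 144 CPM with C13 and 182, 206 and 211 CPM with DMSO (log2 fold change -0.57, SE 0.25). Nascent Hnrnpc had 756, 702 and 567 CPM with C13 and 1996, 622 and 2748 CPM with DMSO, where DMSO replicate 2 lay among the C13 libraries. The splicing factor Srsf1 stood the other way, with 465, 528 and 497 nascent CPM with C13 and 146, 286 and 150.3 CPM with DMSO (log2 fold change 1.35, SE 0.52). Its list of SR splicing factors and CLK kinases had 10 of 23 members higher in nascent and 7 of 24 in total RNA. Of these, 3 were higher and 3 lower without overlap in total RNA (12.5% each, against 6.97% and 6.48% of all genes).

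Nuclear genes of the respiratory chain were separated mostly in 1 direction in total RNA. Of 72 members, 49 were higher with C13, the median log2 fold change was 0.135 against -0.0045 for all genes, and libraries did not overlap for 16 higher (22.2%, against 6.97%) and 2 lower (2.78%, against 6.48%). Without DMSO replicate 3, 17 were higher (23.6%, against 11.1% of all genes) and 3 lower (4.17%, against 11.9%). The list's median was -0.0030 without C13 replicate 1 and lay between 0.12 and 0.20 without any other single library. Cox7b, a subunit of cytochrome c oxidase, had 281, 213 and 189.9 total CPM with C13 and 129, 148 and 146 CPM with DMSO (log2 fold change 0.70, SE 0.25). Ndufs5, of complex I, had 113, 92.1 and 97.3 CPM with C13 and 65.0, 46.3 and 66.5 CPM with DMSO (log2 fold change 0.77, SE 0.28), and Ndufb2 had 66.3, 69.4 and 149 CPM with C13 and 49.5, 30.7 and 13.1 CPM with DMSO. Mitochondrial ribosomal RNA was at 1.29% to 1.54% of total reads with C13 and 1.71% to 2.52% with DMSO in the same libraries, and its part was not tested. In nascent RNA the list gave no such separation, with 29 of 69 higher, 2 higher (2.9%, against 6.02%) and 4 lower without overlap (5.8%, against 4.34%), and a median of -0.14 that became 0.0013 with the library sizes of the total table. Cytosolic ribosomal protein genes had 31 of 77 members higher in nascent and 43 of 79 in total RNA. Of the mitochondrial fission and fusion genes, 9 of 15 were higher in nascent and 9 of 19 in total RNA, and total Immt, which organises cristae, had 349, 306 and 343 CPM with C13 and 485, 457 and 447 CPM with DMSO (log2 fold change -0.48, SE 0.22).

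Cytoskeletal and phagocytic genes that were separated were lower with C13 more often than higher. In total RNA 15 of 30 were higher, with 3 higher (10%, against 6.97% of all genes) and 7 lower without overlap (23.3%, against 6.48%). In nascent RNA 5 of 30 were lower without overlap (16.7%, against 4.34%) and 0 higher (against 6.02%). Tuba1b, an alpha tubulin, had 7495, 6942 and 7336 total CPM with C13 and 5065, 3247 and 4562 CPM with DMSO (log2 fold change 0.76, SE 0.22). Actg1, gamma actin, had 2781, 2752 and 3323 CPM with C13 and 4107, 3867 and 3921 CPM with DMSO (log2 fold change -0.43, SE 0.17). Among identity genes, libraries did not overlap in total RNA for 4 higher (14.8%, against 6.97%) and 3 lower (11.1%, against 6.48%). Csf2rb, the common beta chain of the GM-CSF receptor, had 297, 226 and 239 total CPM with C13 and 142, 132 and 148 CPM with DMSO (log2 fold change 0.85, SE 0.24). Tgfbr1, a receptor of TGF-beta, stood the other way, at 2.25, 2.18 and 3.88 CPM with C13 and 4.68, 10.4 and 11.8 CPM with DMSO (log2 fold change -1.69, SE 0.70), as did Mertk, a receptor for dying cells, at a low level (-3.03, SE 1.59), and Spi1, the transcription factor PU.1 (-0.21, SE 0.26). Homeostatic microglia genes as a list had 13 of 27 members higher in total RNA and disease-associated microglia genes 13 of 25. Among disease-associated genes Gpnmb, a glycoprotein of lysosome-rich phagocytes, had 5799.7, 5896 and 5754 total CPM with C13 and 4579.6, 4174 and 4105 CPM with DMSO (log2 fold change 0.44, SE 0.18), and nascent Spp1, osteopontin, had 1036, 719 and 822 CPM with C13 and 1358, 1076 and 2413 CPM with DMSO (log2 fold change -0.91, SE 0.41). Cyclins and mitotic regulators had 6 of 27 members higher in nascent and 8 of 29 in total RNA, with a total median of -0.11, and -0.04 without DMSO replicate 3. Libraries did not overlap in total RNA for 4 of them higher (13.8%, against 6.97%) and 5 lower (17.2%, against 6.48%). Of 31 nucleolar genes 2 were higher and 2 lower without overlap in total RNA (6.45% each, against 6.97% and 6.48% of all genes). In nascent RNA 4 were higher (12.9%, against 6.02%) and 1 lower without overlap (3.23%, against 4.34%). Total nucleolin, Ncl, had 1663, 1226 and 1559.7 CPM with C13 and 1005, 742 and 1058 CPM with DMSO (log2 fold change 0.66, SE 0.21).

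**Figure D4:**
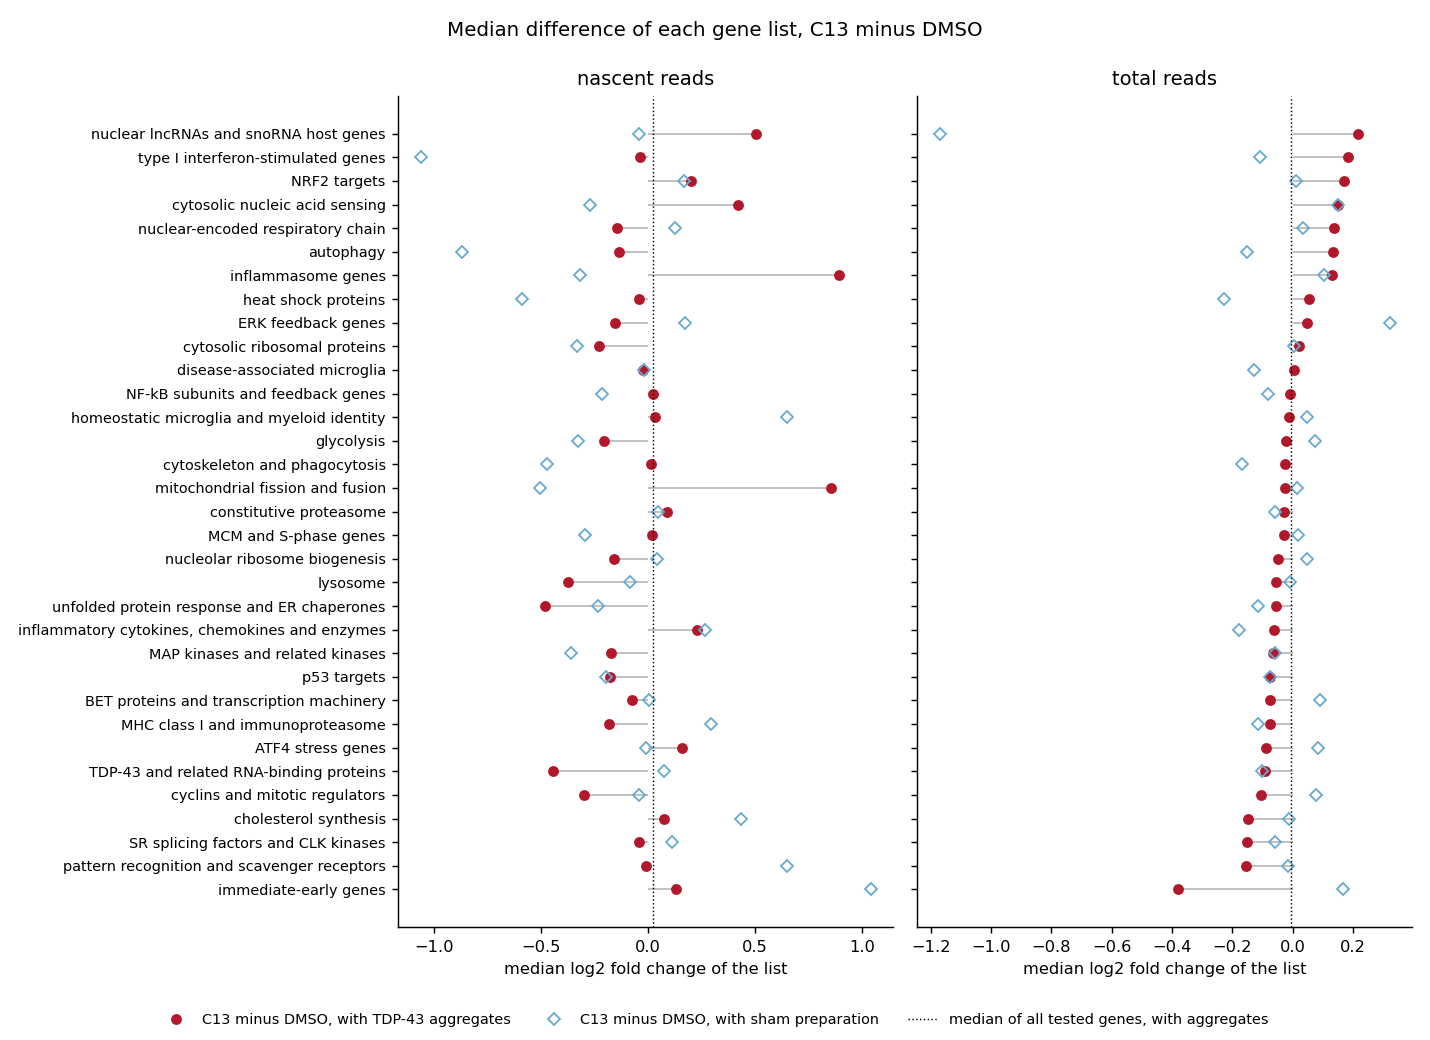
Median log2 fold change of C13 over DMSO for the 33 gene lists with at least 5 tested members, in nascent (left) and total (right) reads, with filled points and lines from 0 for cultures with TDP-43 aggregates, open diamonds for sham cultures and a dotted line at the median of all tested genes. With aggregates the medians run from -0.48 to 0.89 in nascent and from -0.38 to 0.22 in total reads.

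Nascent and remaining reads were then set against each other across all 7078 genes. Their log2 fold changes had a Pearson r of 0.208 and the same sign for 57.6% of genes, and for the 1769 genes with the most nascent reads r was 0.257 with 60.1% of equal sign. These are correlations across genes, which are not independent and which share their libraries. In 1 model over both kinds of read with the library as a term, edgeR called 0 of 7078 genes for a difference in ratio, with 139 (1.96%) higher and 112 (1.58%) lower at an unadjusted p under 0.05. The genes with the smallest p were Dtx2, Ola1, Nol4l, Txndc5 and Ints3 on the higher side and Mrps10, Retreg2, Atp5e, Arpc4 and Josd2 on the lower side. Nascent Nol4l had 90.4, 71.3 and 36.2 CPM with C13 and 3.35, 1.31 and 3.85 CPM with DMSO. Genes were also divided by the share of their reads that was nascent over all 12 libraries. Of the 2360 genes with the highest share, 3.89% to 73.5%, 55.2% were higher with C13 in nascent RNA, and libraries did not overlap for 188 higher (7.97%) and 78 lower (3.31%). Of the 2360 genes with the lowest share, up to 2.48%, 48.8% were higher, with 101 (4.28%) and 116 (4.92%) without overlap. The median log2 fold changes of these groups were 0.11 and -0.04 with aggregates, and 0.20 and -0.27 in sham cultures.

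The sham cultures hold the same drug comparison in libraries outside the fold changes and the overlap rule used for naming. They did share the fit that gave the p-values of the naming rule, through its filter, scaling and estimate of spread. In the sham comparison 0 genes were called in either table (edgeR), and 488 nascent (6.89%) and 722 total genes (6.1%) had an unadjusted p under 0.05. Of the 12 total genes named as higher with C13, 11 had a log2 fold change of the opposite sign there, as had 8 of the 12 named as lower. In nascent RNA this held for 6 and 7 of 12. Over all tested genes the sign was opposite for 52.8% in nascent and 54.3% in total RNA. Genes named for a wide separation are the ones compared, so their signs carry no test. Total Prpf19 had a log2 fold change of 1.14 (SE 0.25) with TDP-43 and -1.10 (SE 0.25) with sham aggregates. Agpat4 had 1.61 (SE 0.34) with TDP-43 and -1.25 (SE 0.34) with sham aggregates, and total mt-Tw had 1.49 (SE 0.29) with TDP-43 and -1.12 (SE 0.29) with sham aggregates. Their difference between the 2 arms missed the threshold of the interaction test (edgeR adjusted p = 0.0741, 0.102 and 0.0741). That test called 0 genes in either table, and its unadjusted p was under 0.05 for 537 nascent (7.59%) and 941 total genes (7.96%). Without the libraries that stood apart, C13 replicate 3 with sham aggregates and DMSO replicate 3 with TDP-43, the sign was opposite for 11 of 12 total genes named as higher and 6 of 12 named as lower, and for 8 and 6 of 12 nascent genes. The interaction test then called 0 genes in either table (edgeR), with an unadjusted p under 0.05 for 575 nascent and 962 total genes. Prpf19 then had 1.14 with TDP-43 and -1.16 (SE 0.30) with sham aggregates, and its interaction had an adjusted p of 0.227 (edgeR). Mitochondrial ribosomal RNA differed in opposite directions in the 2 arms, as given above, and its part was not tested. Retreg2 had the same sign in both arms in nascent RNA, with -2.61 (SE 0.86) with TDP-43 and -3.46 (SE 0.90) with sham aggregates.

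**Figure D5:**
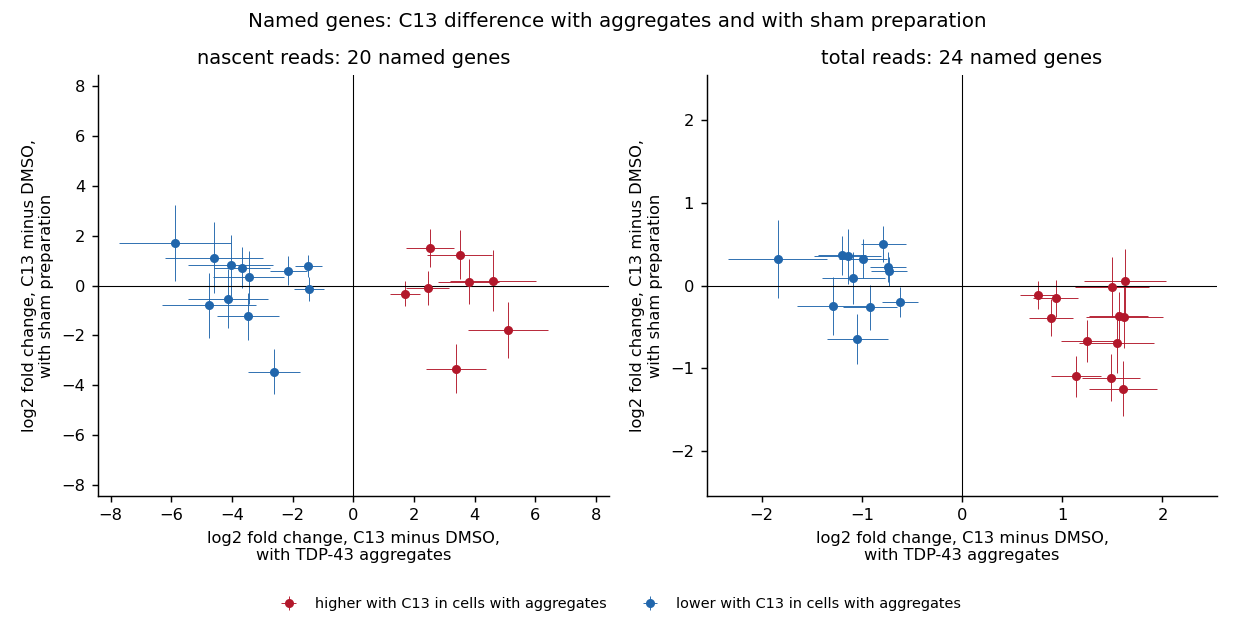
Log2 fold changes of C13 over DMSO with TDP-43 aggregates (horizontal) and with sham aggregates (vertical) for the named nascent genes with over 3 reads in the lower group (left, 20 genes) and the named total genes (right, 24 genes), with standard errors as bars. Red points were named as higher and blue points as lower with C13 in cultures with aggregates; 11 of the 12 red points of the total table lie below 0 on the vertical axis.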

How the data were processed

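Nascent and total reads were counted per gene in the same 12 libraries (SLAM-seq, QuantSeq 3′ kit, per the labels' protocols). The deposited values are raw counts made by the authors. The submitters' processing notes name the build GRCm38. For alignment, conversion calling, counting and its use of strand, tools and settings were not given in the sources used here, and overlapping or antisense genes cannot be told apart. Gene positions came from GENCODE M21, which matched 30922 of 30994 gene identifiers. Total reads per library were 19635278 to 40601211, and intervals cover counting error only.

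EdgeR 4.0.16 (R 4.3.3) fitted 4 group means to all 12 libraries, each table filtered with filterByExpr and scaled with TMM by itself. The quasi-likelihood test was adjusted by Benjamini-Hochberg over all genes tested, with a threshold of 0.05. Nascent and remaining reads of a gene were also fitted in 1 model with library as a term. Shares were compared with exact permutation tests (SciPy 1.17.1), and plots drawn with matplotlib 3.10.9. The procedure was tested on simulated data. DESeq2 1.42.0, other scalings, no filter and left-out libraries were alternatives.

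Named are, per table and direction, the 12 genes with the smallest p among those with libraries that do not overlap and a mean of at least 50 nascent or 200 total reads in the higher group; up to 4 genes of each list with at least 5 tested members; fixed genes of the pathway; and the 5 genes with the smallest p in each direction of the ratio test. Members and lists were chosen with earlier results of these data known. Mitochondrial mRNAs were not analysed here.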

Additional observations from a re-analysis of the deposited data

How the results depend on the processing

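The count of 0 called genes (edgeR, either table) was the same with DESeq2's size factors, with counts divided by their common factor, with the 6 libraries alone, without both libraries that stand apart and without each library in turn. DESeq2 called 18 nascent and 30 total genes, and edgeR without a filter on low counts called 10 and 33; the cause was not tested. At an unadjusted p under 0.05 stood 325 nascent genes, and 535 with DESeq2, 214 with the library sizes of the total table, 618 with no filter and 298 to 497 without 1 library, the highest without DMSO replicate 2. For total genes the count was 707, with 1071 without a filter and 519 to 733 without 1 library. For the ratio of nascent to other reads it was 251, with 158 on total-table library sizes and 213 to 387 without 1 library, the highest again without DMSO replicate 2. The difference in nascent share of 0.142 percentage points was 0.0994 without mitochondrial genes and ran from -0.174, without DMSO replicate 3, to 0.435, without DMSO replicate 2. With the total table's library sizes, nascent log2 fold changes shifted by 0.122 at the median and the sign of 8 of 33 list medians turned. Leaving out 1 library let 20 of 33 nascent and 17 of 33 total list medians cross 0.

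Some log2 fold changes turned sign, all of them of genes that were not called. Nascent Rsad2 was 0.292 on total-table sizes, 0.0221 with no filter, 0.00307 in the 6 libraries alone, and 0.35 without the libraries that stand apart, where total Mok was -0.223, nascent Cxcl10 2.8 and nascent Cxcl2 0.128. Nascent Cxcl2 was 0.111 on total-table sizes. Without 1 library, total Mok ran from -1.32 to 1.28, nascent Tardbp from -0.275 to 0.575, total Gclm from -0.0463 to 0.204, total Nqo1 from -1.33 to 3.58, total Nos2 from -0.782 to 0.328, nascent Cxcl10 from -1.35 to 2.8 and total Cxcl10 from -0.108 to 0.654. Nascent Cxcl2 ran from -0.215 to 0.119, nascent Rsad2 from -0.41 to 0.343, total Rsad2 from -0.293 to 0.105, and total Mff, a mitochondrial fission factor, from -0.113 to 0.213. The cause was not tested.

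Replicate numbers did not pair the samples (correlations of same-numbered deviations -0.0292 to 0.0232). With the replicate block, 0 genes were called in either table, 289 nascent and 760 total genes had an unadjusted p under 0.05, and the nascent share differed by 0.142 points. Total Mok was -0.795, total Nqo1 2.57 and nascent Rsad2 0.101 there, on the other side of 0.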
